A study of Mus musculus with 10 samples.

Results

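The 10 phosphodiesterase genes described here are *Pde1a*, *Pde1c*, *Pde2a*, *Pde3a*, *Pde3b*, *Pde4b*, *Pde4d*, *Pde5a*, *Pde8a* and *Pde11a*. They were found by symbol in a table of 57185 genes with counts. They are 10 of the 21 catalytic phosphodiesterase genes of the mouse in that table, and they were chosen with their difference between the genotypes known, so for these 10 genes the comparison is a description without a test. The libraries, 1 per mouse and polyA-selected, came from ventricular tissue near the apex of 5 MLPKO and 5 cRADΔ/Δ-MLPKO male mice. Muscle LIM protein, encoded by *Csrp3*, is missing in all 10 mice, and its absence leads to dilated cardiomyopathy. All carry floxed alleles of *Rrad*, the gene for RAD, and all received tamoxifen (100 mg/kg) when 10 weeks old, 1 month before the hearts were collected. The labels also give the age at collection as 16 weeks, which is more than 1 month after 10 weeks, and the sources used here do not settle which holds. Only the cRADΔ/Δ-MLPKO mice, called double knockout in the labels, carry MYH6-MerCreMer, a tamoxifen-inducible Cre recombinase under a cardiomyocyte promoter. The presence of Cre and the loss of RAD therefore cannot be told apart, and no mice with intact *Csrp3* were analysed here.

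Phosphodiesterases hydrolyse the second messengers cAMP and cGMP and so end their signals. In cardiomyocytes, β-adrenergic receptors raise cAMP, which activates protein kinase A. RAD holds back the L-type calcium channel until protein kinase A phosphorylates it, and phosphodiesterases of several families, held by scaffold proteins at different sites in the cell, limit how far cAMP spreads. The Pde4, Pde7 and Pde8 families hydrolyse cAMP, the Pde5, Pde6 and Pde9 families cGMP, and the Pde1, Pde2, Pde3, Pde10 and Pde11 families both.

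Total counts per library ranged from 33457406 to 49965101. *Rrad* did not check the labels: its level was 140 to 282 CPM (counts per 1000000 counts of the library) in MLPKO and 135 to 202 CPM in cRADΔ/Δ-MLPKO (log2 fold change −0.38, standard error 0.20, edgeR with Benjamini-Hochberg adjusted p = 0.29). The count covers all exons of the gene and all cell types, so the deleted part was not counted apart. *Csrp3*, the gene disrupted in both genotypes, was counted in every mouse, at 1009 to 3261 CPM in MLPKO and 691 to 1177 CPM in cRADΔ/Δ-MLPKO, where its mean was 47.3% of MLPKO (log2 fold change −1.08, edgeR with Benjamini-Hochberg adjusted p = 0.0666, DESeq2 adjusted p = 0.0361). Of 8 ventricular cardiomyocyte markers, all were abundant, and their summed level was 55361 to 67739 CPM in cRADΔ/Δ-MLPKO against 70478 to 83016 CPM in MLPKO. Of these markers, 7 had lower values in cRADΔ/Δ-MLPKO and 4 had an unadjusted p under 0.05. The test was passed by 1, *Tnnt2* (log2 fold change −0.57, edgeR adjusted p = 0.0184). The summed levels of 8 endothelial markers (1003 to 1143 against 843 to 973 CPM) and of 8 smooth muscle and pericyte markers (1024 to 1192 against 802 to 1014 CPM) were higher in every cRADΔ/Δ-MLPKO mouse than in any MLPKO mouse. Of the fitted genes of these lists, 8 of 8 and 5 of 7 had higher values. An unadjusted p under 0.05 was found for 7 and 4 of them, and 1 and 2 passed the test. In the smooth muscle and pericyte list the higher sum lay mostly in *Rgs5* (329.7 and 447 CPM on average in MLPKO and cRADΔ/Δ-MLPKO) and *Acta2* (66.3 and 156 CPM), while *Myh11* and *Pdgfrb* were at 100.4% and 99.1% of MLPKO and *Cnn1* at 22.2%. All 8 macrophage markers had higher values in cRADΔ/Δ-MLPKO, with summed levels of 143 to 203 CPM in MLPKO and 175 to 316 CPM in cRADΔ/Δ-MLPKO that overlapped, and 0 passed the test of edgeR (8 with an unadjusted p under 0.05). Over all genes, 47.9% had lower values in cRADΔ/Δ-MLPKO, 21.6% had an unadjusted p under 0.05 and 2.74% passed the test of edgeR. In RNA of whole tissue, fewer cells of a type and less RNA per cell cannot be told apart. The part of these marker differences in the results below was not tested. From 1 to 20 counts, 73.7% to 80.3% of the values per library were even numbers. A printed count may therefore stand for fewer sequenced fragments than its number, which also bears on the count filter, and this was not tested.

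*Pde11a* had the largest difference between the genotypes among the 10 genes. The gene lies on the minus strand of chromosome 2 (75816154 to 76169438, GRCm39) and encodes a phosphodiesterase that accepts both cAMP and cGMP. It was counted 81, 34, 305, 171 and 111 times in MLPKO mice 1 to 5, and 8, 25, 12, 9 and 28 times in cRADΔ/Δ-MLPKO mice 1 to 5. As CPM, which divides by the library size scaled with TMM, the MLPKO mice had 1.87, 1.08, 6.02, 4.56 and 2.45 and the cRADΔ/Δ-MLPKO mice 0.239, 0.544, 0.328, 0.200 and 0.633. Every cRADΔ/Δ-MLPKO mouse was thus below every MLPKO mouse, and MLPKO mouse 2 was the nearest to them. The mean was 3.20 ± 2.04 CPM (SD, n = 5) in MLPKO and 0.389 ± 0.191 CPM (SD, n = 5) in cRADΔ/Δ-MLPKO, which is 12.2% of the MLPKO mean. The log2 fold change was −3.02 with a standard error of 0.49 (edgeR), and when single mice were left out it ranged from −3.26 to −2.65. MLPKO mice differed widely among themselves, with a coefficient of variation (CV, the SD over the mean) of 63.8%. With 82 counts in all over 5 mice, the level in cRADΔ/Δ-MLPKO rests on few reads.

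The promoter windows of *Pde11a* and of *Pde3a* are shown because these genes had the largest difference and the highest level per kilobase among the 10. Each is the 250 bases before the start of the canonical GENCODE M39 transcript on GRCm39, read 5′ to 3′ on the gene's strand, in the order chr2:76169439-76169688 (minus strand) for *Pde11a* and chr6:141194638-141194887 (plus strand) for *Pde3a*. Capitals mark matches to a searched motif.
Pde11a: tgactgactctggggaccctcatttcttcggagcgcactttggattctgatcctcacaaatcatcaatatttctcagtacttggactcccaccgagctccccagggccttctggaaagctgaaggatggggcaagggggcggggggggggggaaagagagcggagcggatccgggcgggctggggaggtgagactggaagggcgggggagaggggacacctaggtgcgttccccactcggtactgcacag
Pde3a: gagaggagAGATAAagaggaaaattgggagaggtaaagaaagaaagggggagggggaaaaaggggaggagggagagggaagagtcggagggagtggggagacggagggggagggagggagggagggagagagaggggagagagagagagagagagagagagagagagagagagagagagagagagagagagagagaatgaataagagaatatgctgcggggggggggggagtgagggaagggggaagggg
The motifs searched on both strands were the cAMP response element TGACGTCA, its core TGACG, which lies within it, and the GATA motif AGATAA. The *Pde11a* window held none of these letters and had a GC content of 61.2%, against a median of 53.2% over 21770 promoters of the same length. The *Pde3a* window held 1 match to AGATAA, 242 bases before the start. Over the 10 genes, TGACGTCA was found in 0, TGACG in 3 (*Pde1a*, *Pde3b* and *Pde8a*) and AGATAA in 2 (*Pde2a* and *Pde3a*). Of all promoters, 1.69% held TGACGTCA, 18% TGACG and 9.6% AGATAA. These matches describe the letters in the window and not binding of a factor.

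**Figure D1:**
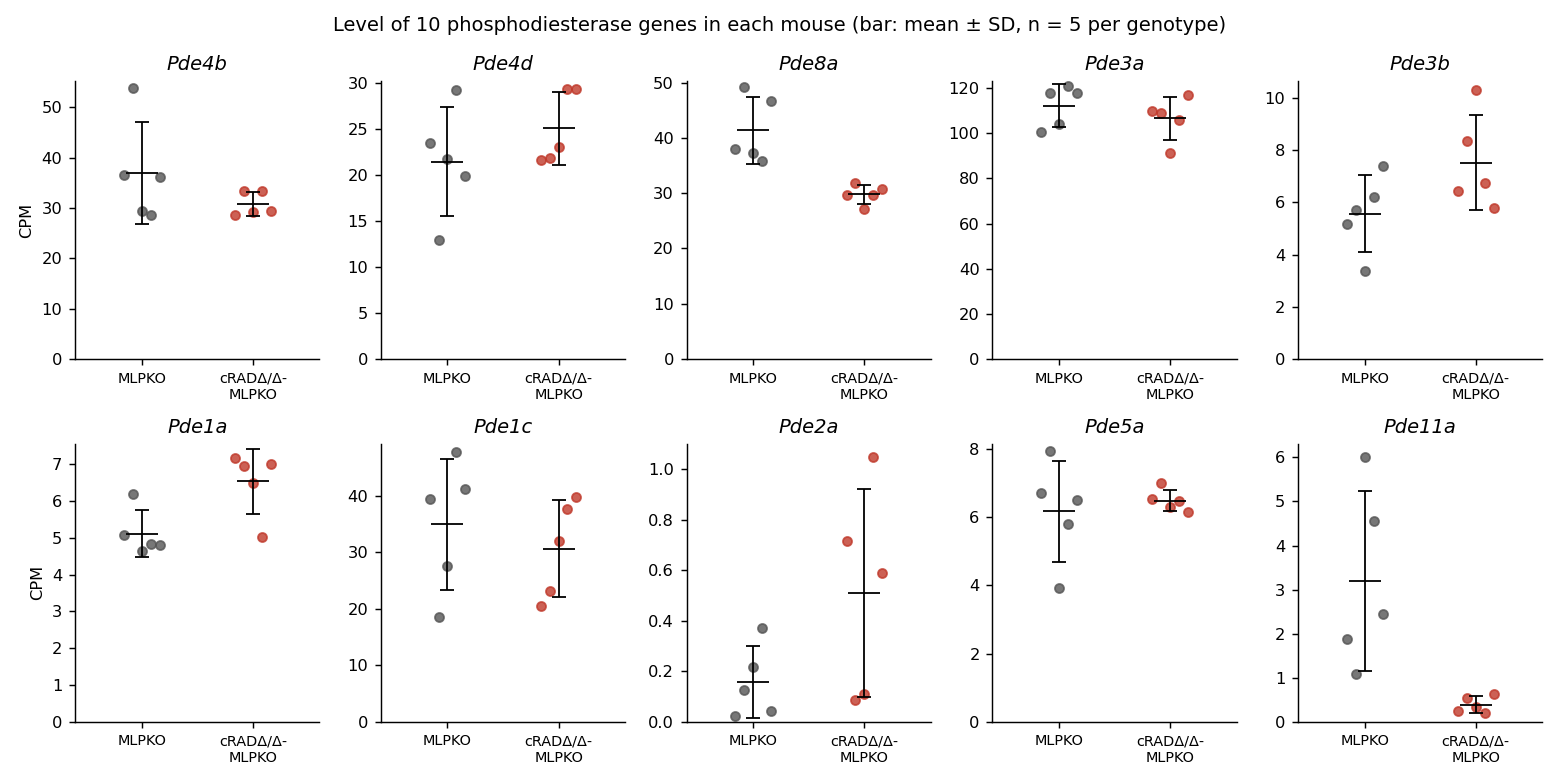
Level of the 10 genes in each mouse, in CPM on a linear axis from 0 (points, MLPKO grey and cRADΔ/Δ-MLPKO red; bar, mean ± SD, n = 5 per genotype). In *Pde8a* and *Pde11a* the genotypes do not overlap, and MLPKO mouse 2 is the highest point of *Pde4b* (53.9 CPM) and the lowest of *Pde4d* (12.9 CPM).

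Among the cAMP-selective genes, *Pde8a* differed most. It encodes a phosphodiesterase with a very high affinity for cAMP, and lies on the plus strand of chromosome 7 (80862941 to 80984284). The MLPKO mice had 38.0, 49.2, 37.2, 35.8 and 46.6 CPM and the cRADΔ/Δ-MLPKO mice 29.6, 31.8, 27.2, 29.6 and 30.8 CPM. The genotypes did not overlap, and the cRADΔ/Δ-MLPKO mice lay close together. The mean was 41.4 ± 6.09 CPM (SD, n = 5) in MLPKO and 29.8 ± 1.73 CPM (SD, n = 5) in cRADΔ/Δ-MLPKO, or 72.1% of MLPKO. On the log2 scale the difference was −0.47 (standard error 0.09, edgeR). The summed cardiomyocyte markers, which did not overlap either, were at 82.5% of MLPKO in cRADΔ/Δ-MLPKO. The largest part of that sum was *Myh6*, with means of 36497 CPM in MLPKO and 29888 CPM in cRADΔ/Δ-MLPKO. The single markers were not lower by the same share, and ran from 67.6% of MLPKO (*Tnnt2*) to 109% (*Tnni3*).

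*Pde4b* and *Pde4d* encode the cAMP-selective enzymes best known in the heart, *Pde4b* for its place near the L-type calcium channel and *Pde4d* for its complexes with scaffold proteins and the ryanodine receptor. *Pde4b* (chromosome 4, 101944740 to 102465716, plus strand) had 36.6, 53.9, 29.5, 28.7 and 36.1 CPM in MLPKO and 28.6, 33.3, 29.3, 33.4 and 29.5 CPM in cRADΔ/Δ-MLPKO. The groups overlapped, and MLPKO mouse 2 stood above all other mice. With it, the log2 fold change was −0.26 (standard error 0.15, edgeR), and without it −0.09. *Pde4d* (chromosome 13, 108586482 to 110092497, plus strand) had 23.5, 12.9, 21.8, 29.2 and 19.9 CPM in MLPKO and 21.6, 21.9, 23.1, 29.4 and 29.4 CPM in cRADΔ/Δ-MLPKO. Here MLPKO mouse 2 was the lowest of the 10. The log2 fold change was 0.23 (standard error 0.18, edgeR), 0.09 without that mouse and 0.36 without MLPKO mouse 4, so both Pde4 values rested in part on MLPKO mouse 2.

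*Pde3a* and *Pde3b* encode enzymes that hydrolyse cAMP and are inhibited by cGMP. *Pde3a* (chromosome 6, 141194888 to 141453174, plus strand), the target of the inotrope milrinone, had 100.4, 118, 104, 121 and 118 CPM in MLPKO and 109.7, 109, 91.3, 106 and 117 CPM in cRADΔ/Δ-MLPKO. It had the highest counts of the 10 genes and varied least between MLPKO mice, with a CV of 8.5% in MLPKO and 8.79% in cRADΔ/Δ-MLPKO. Its log2 fold change was −0.08 (standard error 0.08, edgeR). *Pde3b* (chromosome 7, 114013685 to 114138486, plus strand), which is abundant in adipocytes and hepatocytes, had 5.18, 5.70, 3.36, 6.19 and 7.39 CPM in MLPKO and 6.43, 8.36, 10.3, 6.75 and 5.77 CPM in cRADΔ/Δ-MLPKO. Each cRADΔ/Δ-MLPKO mouse was above the MLPKO mean of 5.56 CPM, but the groups overlapped, and the log2 fold change was 0.44 (standard error 0.21, edgeR). The highest value was that of cRADΔ/Δ-MLPKO mouse 3. The same library had 216 counts of *Adipoq*, 330 of *Plin1* and 396 of *Cidec*, markers of adipocytes, against 0 to 10 counts in the other 9 mice. Of the 6 adipocyte markers listed, *Lep* and *Ucp1* were near 0 in both genotypes. *Fabp4*, the remaining marker, was high in every mouse and did not set this library apart. It had 10128 to 15674 counts in MLPKO and 12460 to 16204 in cRADΔ/Δ-MLPKO, of which 14521 were in mouse 3. Without cRADΔ/Δ-MLPKO mouse 3 the log2 fold change of *Pde3b* was 0.31, and the part of adipocytes in its value was not tested.

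*Pde1a* and *Pde1c* encode enzymes activated by calcium and calmodulin. *Pde1a* (chromosome 2, 79664364 to 79959802, minus strand) had 5.09, 6.21, 4.64, 4.83 and 4.81 CPM in MLPKO and 7.18, 6.97, 6.50, 5.03 and 7.01 CPM in cRADΔ/Δ-MLPKO. It was higher in 4 of 5 cRADΔ/Δ-MLPKO mice than in any MLPKO mouse, and cRADΔ/Δ-MLPKO mouse 4 lay among the MLPKO values. The log2 fold change was 0.36 (standard error 0.13, edgeR), and between 0.32 and 0.44 with each mouse left out. *Pde1c* (chromosome 6, 56046784 to 56629472, minus strand) had 39.3, 18.6, 27.6, 47.7 and 41.2 CPM in MLPKO and 20.4, 23.1, 32.0, 37.7 and 39.8 CPM in cRADΔ/Δ-MLPKO. The mice of each genotype spread over a wide range that was shared. Its log2 fold change was −0.19 (standard error 0.25, edgeR), −0.35 without MLPKO mouse 2 and −0.05 without MLPKO mouse 4.

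*Pde5a*, the cGMP-selective target of sildenafil (chromosome 3, 122522594 to 122653023, plus strand), had 6.70, 7.95, 3.91, 5.81 and 6.51 CPM in MLPKO and 6.52, 6.99, 6.31, 6.46 and 6.15 CPM in cRADΔ/Δ-MLPKO. The means were close, 6.18 ± 1.49 and 6.49 ± 0.316 CPM (SD, n = 5 each). The log2 fold change was 0.07 (standard error 0.16, edgeR), and −0.05 without MLPKO mouse 3. On the opposite strand a long noncoding RNA gene shares 15.9% of its exon bases, and without stated strand settings their reads cannot be told apart.

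*Pde2a*, the cGMP-stimulated phosphodiesterase (chromosome 7, 101070825 to 101162038, plus strand), was counted 1, 4, 11, 14 and 2 times in MLPKO and 24, 4, 4, 47 and 26 times in cRADΔ/Δ-MLPKO. Only 5 of 10 mice had more than 10 counts, so it was not among the genes fitted. Of its exon bases, 52.6% also belong to an overlapping gene on the same strand, *Gm45837*. Counters that discard reads shared by overlapping genes would lose these reads, and the setting used is not given in the sources used here. Its count was therefore not read as its level.

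The 9 genes that passed the count filter (over 10 counts in 6 mice or more) were split into 5 with lower and 4 with higher values in cRADΔ/Δ-MLPKO, with a median log2 fold change of −0.08, against 0.01 over all 13451 genes fitted. Of all genes, 47.9% had lower values. The genotypes did not overlap in 2 of the 9 (*Pde8a* and *Pde11a*), both lower in cRADΔ/Δ-MLPKO, where 6.62% of all genes did not overlap, 3.98% with lower and 2.65% with higher values. The same 2 of 9 had an edgeR adjusted p under 0.05 with Benjamini-Hochberg adjustment, where 2.74% of all genes did. Since the genes were chosen on this contrast, these counts describe the choice. With single mice left out, the adjusted p of *Pde11a* was under 0.05 in 10 of 10 fits and that of *Pde8a* in 4 of 10. These fits reuse the mice of the choice, so they describe it as well and add no test.

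**Figure D2:**
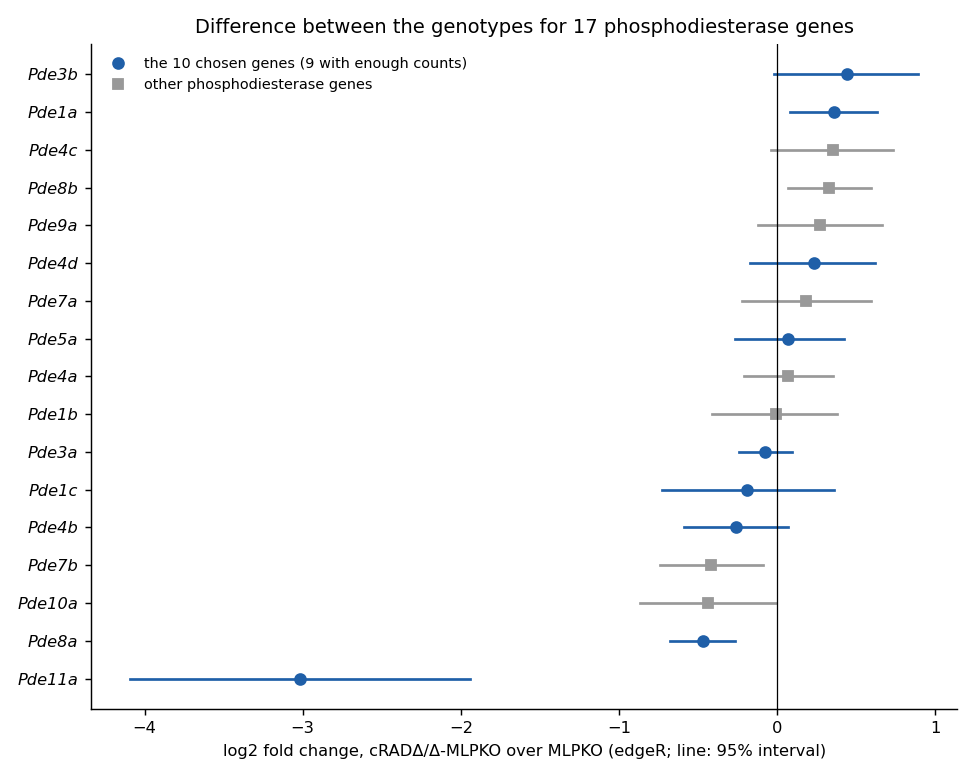
Log2 fold change of cRADΔ/Δ-MLPKO over MLPKO for 17 phosphodiesterase genes (edgeR, n = 5 mice per genotype; line, 95% interval). Circles are the chosen genes that passed the count filter and squares the other phosphodiesterase genes. *Pde11a* lies at −3.02, and the other 16 lie between −0.47 (*Pde8a*) and 0.44 (*Pde3b*).

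The other 11 catalytic phosphodiesterase genes are those left after the 10 were chosen with their genotype difference known. They were tested, but that choice bears on how many of the 11 could be called. Of these, 8 passed the count filter and 0 had an adjusted p under 0.05 (edgeR with Benjamini-Hochberg adjustment), as with DESeq2, while 3 of the 8 had an unadjusted p under 0.05, where 21.6% of all genes did. *Pde8b*, the paralog of *Pde8a*, was 2.88 to 3.34 CPM in MLPKO and 3.59 to 4.65 CPM in cRADΔ/Δ-MLPKO without overlap (log2 fold change 0.33, 95% interval 0.07 to 0.59, edgeR adjusted p = 0.135). *Pde7b*, which hydrolyses cAMP, was 47.8 ± 6.58 CPM in MLPKO and 35.9 ± 7.86 CPM in cRADΔ/Δ-MLPKO (SD, n = 5 each; log2 fold change −0.42, 95% interval −0.74 to −0.09, edgeR adjusted p = 0.131). *Pde10a*, a gene best known from the striatum, had a log2 fold change of −0.44 (95% interval −0.87 to −0.01, edgeR adjusted p = 0.22). The remaining intervals were −0.21 to 0.35 for *Pde4a*, −0.04 to 0.73 for *Pde4c*, −0.22 to 0.59 for *Pde7a*, −0.12 to 0.66 for *Pde9a* and −0.41 to 0.38 for *Pde1b*. *Pde1b* shares 35.4% of its exon bases with *Ppp1r1a* on the other strand. The photoreceptor genes *Pde6a*, *Pde6b* and *Pde6c* had 0 to 6 counts in every mouse.

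The values of *Pde8a* and its paralog *Pde8b* lay apart between the genotypes in opposite directions, although *Pde8b* did not pass the test (edgeR adjusted p = 0.135). The ratio of their counts in a mouse, which does not depend on library size, was 12.4, 17.1, 11.1, 11 and 16.1 in MLPKO and 8.25, 8.35, 7.48, 6.36 and 8.34 in cRADΔ/Δ-MLPKO. Every MLPKO mouse was above every cRADΔ/Δ-MLPKO mouse, which follows from the lack of overlap in both genes and adds nothing to it. This ratio was chosen after the values were seen and contains a gene of the choice, so it was given no test. The ratios of *Pde4d* to *Pde4b* (0.240 to 1.01 against 0.658 to 0.996), *Pde3a* to *Pde3b* (16.0 to 30.9 against 8.87 to 20.2), *Pde1c* to *Pde1a* (3.00 to 9.88 against 2.84 to 7.49) and *Pde7b* to *Pde7a* (1.29 to 2.88 against 0.749 to 1.52) overlapped between MLPKO and cRADΔ/Δ-MLPKO.

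Levels were compared between genes as CPM divided by the kilobases of exon (RPKM). In MLPKO the order of the means began with *Pde4a* (10.0 ± 2.04 RPKM), *Pde3a* (8.74 ± 0.743 RPKM) and *Pde8a* (6.62 ± 0.975 RPKM; SD, n = 5 each). Within a mouse, *Pde4a* was above *Pde3a* in 4 of 5 MLPKO mice, so this pair did not separate. *Pde3a* was above *Pde8a* in 5 of 5 MLPKO mice, although the ranges over mice met (7.81 to 9.43 and 5.74 to 7.88 RPKM), and in 5 of 5 cRADΔ/Δ-MLPKO mice (7.11 to 9.08 and 4.35 to 5.10 RPKM). Next among the 10 genes in MLPKO came *Pde4b* (3.13 ± 0.859 RPKM), *Pde1c* (1.65 ± 0.551 RPKM) and *Pde4d* (1.48 ± 0.405 RPKM), and *Pde1c* was above *Pde4d* in 3 of 5 mice. *Pde1a* (0.681 ± 0.0843 RPKM), *Pde5a* (0.578 ± 0.139 RPKM) and *Pde3b* (0.434 ± 0.115 RPKM) were lower. *Pde1a* was above *Pde5a*, and *Pde5a* above *Pde3b*, in 5 of 5 MLPKO mice, although their ranges over mice overlapped.

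*Pde11a* was 17th of the 21 phosphodiesterase genes in MLPKO, with 0.286 ± 0.183 RPKM, and 18th in cRADΔ/Δ-MLPKO, with 0.0348 ± 0.0171 RPKM (SD, n = 5 each). The change of rank rests on *Pde2a*, whose count was not read as its level. *Pde2a* was above *Pde11a* in 3 of 5 cRADΔ/Δ-MLPKO mice. *Pde11a* made up 0.243% to 1.31% of the summed RPKM of the 21 genes, *Pde2a* included, in MLPKO and 0.0429% to 0.136% in cRADΔ/Δ-MLPKO. The cAMP-selective families held 67.9% ± 1.92 of that sum in MLPKO and 67.1% ± 1.29 in cRADΔ/Δ-MLPKO, the cGMP-selective families 2.63% ± 0.432 and 3.15% ± 0.471, and the families that accept both 29.5% ± 1.80 and 29.7% ± 1.13 (SD, n = 5 each). The ranges of all 3 classes overlapped between the genotypes. With the length of the longest transcript in place of all exons, *Pde8a* stood above *Pde3a* in MLPKO (9.21 and 9.05 RPKM). *Pde4a* then had 17.8 RPKM in MLPKO, against 10.0 RPKM with all exons, while *Pde3a* had 8.74 RPKM with all exons. The shares of the classes therefore depend on the length used, and they were not computed with the longest transcript.

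**Figure D3:**
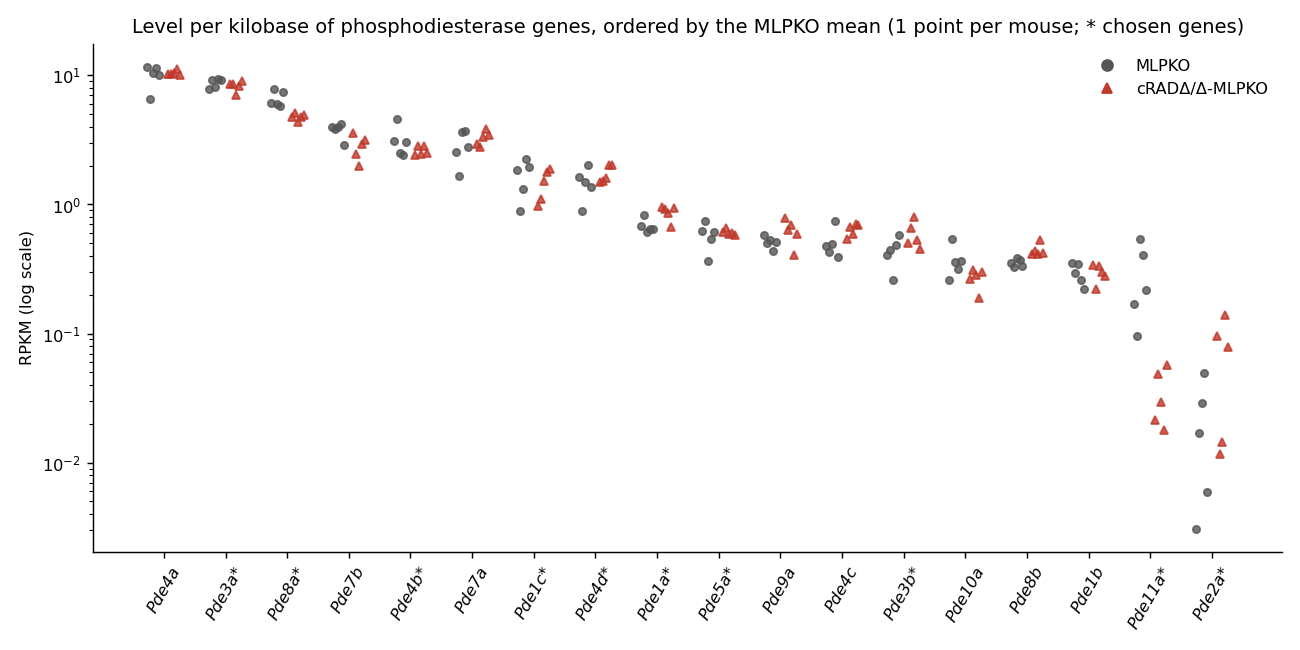
Level per kilobase (RPKM, log axis) of 18 phosphodiesterase genes in each mouse, ordered by the MLPKO mean (circles MLPKO, triangles cRADΔ/Δ-MLPKO, n = 5 each; asterisks, the chosen genes). *Pde4a*, *Pde3a* and *Pde8a* lead, and *Pde11a* stands near the end, at 0.0965 to 0.539 RPKM in MLPKO and 0.0179 to 0.0567 RPKM in cRADΔ/Δ-MLPKO.

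The spread between mice was smaller in cRADΔ/Δ-MLPKO for 7 of the 9 fitted genes by the CV, as it was for 62.1% of all genes. In proportion, with all mice, the largest drops were in *Pde4b*, *Pde5a* and *Pde8a*. The CV was 27.5% in MLPKO and 7.58% in cRADΔ/Δ-MLPKO for *Pde4b*, 24% and 4.87% for *Pde5a*, and 14.7% and 5.81% for *Pde8a*, and it was no lower in cRADΔ/Δ-MLPKO for *Pde1a* (12.4% and 13.4%) and *Pde3a* (8.5% and 8.79%). Without MLPKO mouse 2 the MLPKO values of *Pde4b*, *Pde5a* and *Pde8a* were 12.8%, 22.2% and 12.4%. The count was again 7 of 9, but not of the same genes, and the share over all genes was 51.1%. *Pde3a* (9.32% in MLPKO) then joined the 7, and *Pde1c* (21.5% in MLPKO and 28.1% in cRADΔ/Δ-MLPKO) left them. For *Pde1a* the MLPKO value fell to 3.81%.

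With the genotype means taken out, the log2 CPM of the 9 genes gave 36 pairs, with Pearson correlations from −0.76 to 0.87 over 10 mice. The closest pair was *Pde1c* with *Pde4d* (r = 0.87, Spearman rho = 0.93, and r = 0.72 without the 2 mice farthest from the median of *Pde1c*). Both were lowest in MLPKO mouse 2 and were high in MLPKO mouse 4 and in cRADΔ/Δ-MLPKO mice 4 and 5. *Pde4b* and *Pde8a* had r = 0.80 (rho = 0.71), and 0.50 without the 2 mice farthest from the median of *Pde4b*. These points share library and depth, and the values are descriptions. The genes whose log2 CPM was most like that of *Pde11a* over all 10 mice were *Rnf139* (r = 0.96), *Cops3* (0.95), *Gucd1* (0.94), *Nkiras1* (0.93) and *Smyd5* (0.92), all of which had lower means in cRADΔ/Δ-MLPKO. With the genotype means taken out they were *Lrtm1* (r = 0.94), *Rhd* (0.93), *Arb2a* (0.92), *Gfra1* (0.92) and *Kif2c* (0.91). Both lists hold the highest values among all fitted genes outside the 10, so high correlations come with the choice. *Gfra1* was higher in cRADΔ/Δ-MLPKO without overlap (log2 fold change 0.94, edgeR adjusted p = 0.0521), with r = −0.43 over all 10 mice. In the other genes of the second list the genotypes overlapped, and *Kif2c* had 2 to 30 counts. *Lrtm1* followed *Pde11a* among the MLPKO mice, from 199 CPM in mouse 2 to 647 CPM in mouse 3.

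**Figure D4:**
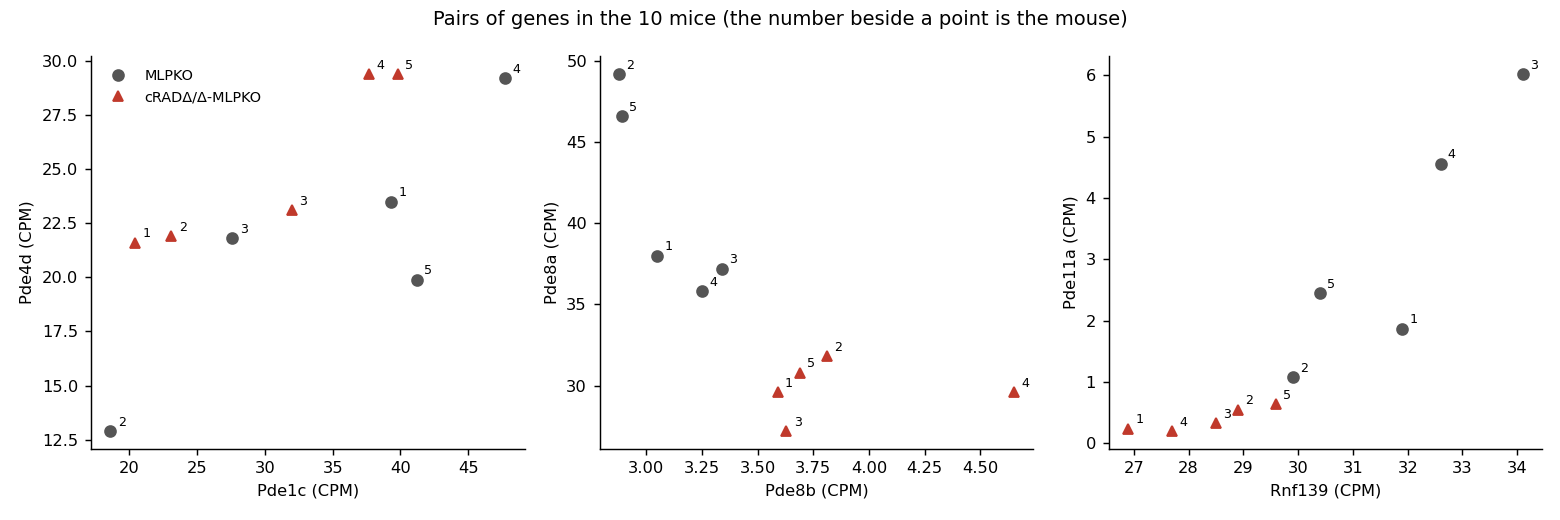
Pairs of genes in the 10 mice, in CPM on both axes (circles MLPKO, triangles cRADΔ/Δ-MLPKO; the number is the mouse). Left, *Pde4d* against *Pde1c*, both lowest in MLPKO mouse 2 (12.9 and 18.6 CPM). Middle, *Pde8a* against *Pde8b*, with the genotypes apart on both axes. Right, *Pde11a* against *Rnf139*, in which the 5 cRADΔ/Δ-MLPKO mice hold the 5 lowest values of both.

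The other genes of the pathway were counted from lists made by role, of 66 genes in all, of which 57 passed the count filter. Of these, 2 passed the test (edgeR with Benjamini-Hochberg adjustment over 13451 genes), both lower in cRADΔ/Δ-MLPKO, where 1.8% of all genes were called lower. The median log2 fold change of the 57 was 0.01, as over all genes. DESeq2 called 7 of the 57 and 9.65% of all genes.

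Of the adenylyl cyclases, which make cAMP, 7 were fitted, 3 with lower and 4 with higher values in cRADΔ/Δ-MLPKO. Of the 7, 1 passed the test of edgeR, where 2.74% of all genes did. *Adcy1*, a calcium- and calmodulin-stimulated cyclase, had 4.35, 5.96, 2.33, 8.11 and 6 CPM in MLPKO and 2.09, 1.26, 1.26, 1.92 and 3.08 CPM in cRADΔ/Δ-MLPKO. The genotypes overlapped through MLPKO mouse 3, and the log2 fold change was −1.47 (standard error 0.33, edgeR adjusted p = 0.0421). The call was kept in 2 of 10 fits that left out a mouse, with adjusted p up to 0.0955 without cRADΔ/Δ-MLPKO mouse 3. *Adcy8*, also stimulated by calcium and calmodulin and named after its values were seen, lay below the count filter, with 2, 0, 10, 9 and 8 counts in MLPKO and 10, 20, 19, 38 and 22 counts in cRADΔ/Δ-MLPKO, higher as CPM in every cRADΔ/Δ-MLPKO mouse than in any MLPKO mouse. The main cardiac cyclases *Adcy5* and *Adcy6* had log2 fold changes of 0.04 (95% interval −0.24 to 0.31) and 0.03 (−0.18 to 0.23).

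Of the genes for cGMP-dependent kinases, EPAC proteins and Popeye proteins, 6 were fitted, 5 with lower and 1 with higher values in cRADΔ/Δ-MLPKO. Of the 6, 2 had an unadjusted p under 0.05 and 1 passed the test of edgeR, where 21.6% and 2.74% of all genes did. DESeq2 called 2 of the 6 and 9.65% of all genes. *Popdc2*, which encodes a cAMP-binding membrane protein of striated muscle, had 529, 521, 432, 521 and 614 CPM in MLPKO and 354, 396, 375, 404 and 367 CPM in cRADΔ/Δ-MLPKO, without overlap (log2 fold change −0.46, standard error 0.08, edgeR adjusted p = 0.0226). Its call was kept in 6 of 10 fits that left out a mouse. Its cRADΔ/Δ-MLPKO values were lower as were the summed cardiomyocyte markers. *Popdc3*, of the same family, had a log2 fold change of −0.44 with overlapping genotypes (edgeR adjusted p = 0.118, DESeq2 adjusted p = 0.048).

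In the other lists 0 genes passed the test of edgeR, with unadjusted p under 0.05 for 4 of 8 genes of guanylyl cyclases, natriuretic peptide receptors and nitric oxide synthases, 3 of 9 of protein kinase A, 0 of 19 of scaffolds and partners, 0 of 2 of cAMP export and 1 of 6 of CREB factors, beside 21.6% of all genes. DESeq2 called 1, 3, 0, 0 and 0 of these. The smallest p of each list belonged to *Gucy1a1*, a subunit of the nitric oxide receptor (log2 fold change 0.33, edgeR adjusted p = 0.0681), to *Prkaca*, the main catalytic subunit of protein kinase A (−0.23, edgeR adjusted p = 0.0691, no overlap), to *Pik3r5*, a regulatory subunit of PI3Kγ (0.64, edgeR adjusted p = 0.247), to *Abcc4*, an exporter of cyclic nucleotides (0.16, edgeR adjusted p = 0.601), and to *Creb1* (0.26, edgeR adjusted p = 0.14). The inhibitory subunits *Pde6g* and *Pde6h* did not pass the count filter.

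**Figure D5:**
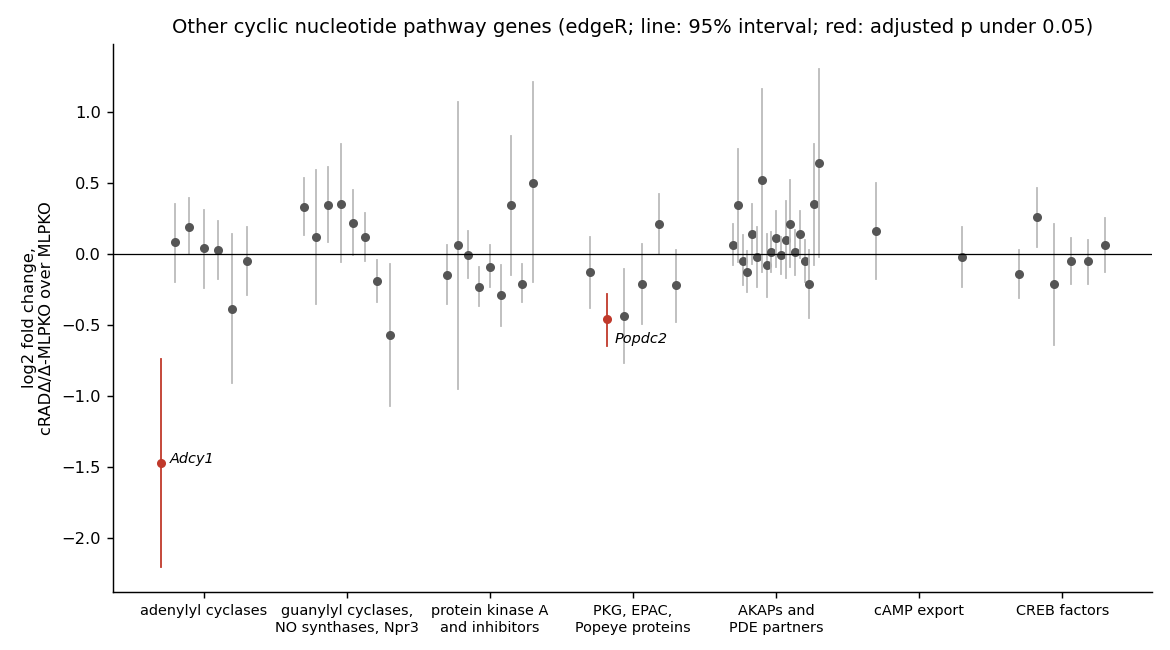
Log2 fold change of cRADΔ/Δ-MLPKO over MLPKO for 57 other genes of the cyclic nucleotide pathway by role (edgeR, n = 5 mice per genotype; line, 95% interval; red, adjusted p under 0.05). The 2 red genes, *Adcy1* at −1.47 and *Popdc2* at −0.46, lie below 0.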

How the data were processed

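RNA of the ventricle of 10 mice was sequenced as 1 library per mouse. Reads had been aligned by STAR to GRCm39 and summed over genes by featureCounts, and the authors deposited these raw counts, not normalized. Versions and the settings for strand, read pairs and shared reads are not given in the sources used here. Of 60676 rows, 3491 had no value and were left out. Genotypes came from the sample labels. Symbols and positions were taken from GENCODE M39 (GRCm39), where 56629 of the counted genes were found. Of the pathway symbols, *Bves* was matched to *Popdc1* and *Akap2* to no single gene.

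As in the study's methods, predicted genes (Gm, Rik) were dropped, and a gene had to exceed 10 counts in 6 or more of the 10 mice, which left 13451 genes. The genotypes were compared over all of them by edgeR 4.0.16 (quasi-likelihood test; R 4.3.3), with TMM factors and Benjamini-Hochberg adjustment, and intervals are 95%. Each p-value weighs the difference between the genotypes against the spread between mice. Alternatives were DESeq2 1.42.0, limma-voom (limma 3.58.1), RLE and upper-quartile factors, other filters, the mouse number as a block, leaving out each mouse, and other gene lengths. Both genotypes use mouse numbers 1 to 5 in the labels, which belong to different animals. edgeR, DESeq2 and limma-voom were also run on simulated counts of 13451 genes, in which 200 genes were given a 2-fold change. The counts were drawn a single time, with the spread between mice that edgeR had fitted, so the tools were compared under the model of edgeR. The share of false calls was 6.71% for edgeR, 16.7% for DESeq2 and 7.27% for limma-voom. Of the changed genes, edgeR found 76.5%, DESeq2 80.0% and limma-voom 76.5%. Changes under 2-fold, such as those of every fitted phosphodiesterase gene but *Pde11a*, were not simulated, so these shares do not describe them. CPM and RPKM were computed from the counts with numpy 2.4.6 and pandas 2.3.3.

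The 10 genes, the other lists and the marker lists were chosen with earlier results of these data known. The genes named are the 21 catalytic phosphodiesterase genes, pathway genes with an adjusted p under 0.05 or else the smallest p of their list, the 5 genes most like *Pde11a* by each of 2 correlations, and *Rrad* and *Csrp3*. *Adcy5*, *Adcy6*, *Adcy8*, *Popdc3*, *Pde6g*, *Pde6h* and the marker genes were added with their values known. The other marker lists are summarised with the limits. Counting error was given no interval, since reads are not independent molecules. Protein sequences were not analysed here.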

Additional observations from a re-analysis of the deposited data

Results flagged for a closer look

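In 26 genes, each genotype's 5 mice were searched for a mouse far from the other 4, and 5 of the 52 groups held such a mouse, where chance gives about 1 in 20 groups. *Pde1a* in MLPKO was highest in mouse 2, at 6.21 CPM, with the others from 4.64 to 5.09 CPM. *Pde4a* in MLPKO was lowest in mouse 2, at 55.7 CPM, with the others from 86.2 to 98.5 CPM. *Pde7b* in MLPKO was lowest in mouse 5, at 36.5 CPM, with the others from 48.5 to 53.2 CPM. *Pde8b* in cRADΔ/Δ-MLPKO was highest in mouse 4, at 4.65 CPM, with the others from 3.59 to 3.81 CPM. *Creb1* in cRADΔ/Δ-MLPKO was highest in mouse 2, at 32.4 CPM, with the others from 23.6 to 24.7 CPM.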

How the results depend on the processing

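The number of genes with an adjusted p under 0.05 was 369 with edgeR, 34.4% of them higher in cRADΔ/Δ-MLPKO, and 1298 with DESeq2. With upper-quartile factors it was 382, 45.8% of them higher. Leaving out each mouse in turn, it was from 50 (without cRADΔ/Δ-MLPKO mouse 5) to 826 (without MLPKO mouse 4). The pathway genes called were 2 with edgeR, 7 with DESeq2 and 1 with limma-voom, and from 0 to 5 with a mouse left out. *Adcy1* lost its call with limma-voom (adjusted p = 0.0775). The other phosphodiesterase genes called were 0 under every alternative run. The phosphodiesterase genes of the choice with an adjusted p under 0.05 were 1 or 2, and those with lower values 5 or 6, with a mouse left out. The causes were not tested. Of 162 alternative log2 fold changes of the 9 fitted genes, the sign changed in 1, that of *Pde5a* without MLPKO mouse 3.

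The labels do not state whether same-numbered mice are paired. The deviations of same-numbered mice from their group means had correlations from −0.0423 to 0.152, which cannot show whether they shared a litter or a batch. With the mouse number as a block, 281 genes were called, and 2 pathway genes and 2 of the 9 as before.

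Depth limits *Pde11a* in cRADΔ/Δ-MLPKO (8 to 28 counts) and *Pde2a* (1 to 47 counts). With the longest transcript as length, 15 of 20 levels per kilobase in MLPKO moved by more than their SD. Of the other marker lists, 0 of 8 macrophage, 1 of 8 fibroblast, 0 of 5 atrial, 0 of 1 adipocyte and 0 of 4 Schwann cell and neuron markers fitted passed the edgeR test, with unadjusted p under 0.05 for 8, 1, 2, 1 and 1, where 21.6% of all genes had such a p. Of the 8 macrophage markers, 8 had higher values in cRADΔ/Δ-MLPKO.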
